A study of Homo sapiens with 60 samples.

Results

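The high dose of a hot-water extract of Pinelliae Tuber (PT), the crude drug made from Pinellia tubers, was compared with vehicle after 24 h in A549, an established line of human lung carcinoma cells. The comparison held 6 of the 60 libraries in the series, 3 from cells given 500 µg/mL PT and 3 from cells given DMSO, and they were taken by their labels. The sample labels put the DMSO of the vehicle at 0.1% and the design text at 2%. No genotype or other agent separates the groups, and the labels do not say whether PT cultures also received DMSO. The series also held PT at 20 and 100 µg/mL, 3 libraries each, whose values stand beside those of the high dose, and the 100 µg/mL libraries entered no test. PT codes begin with another number than vehicle codes, a difference that cannot be told apart from treatment. For that reason PT at 500 µg/mL was also tested against PT at 20 µg/mL, which shares its code number. Unless another fit is named, each p-value rests on a spread among replicates that was estimated from all 60 libraries together. Since no label calls the replicates separate cultures, that spread may be technical.

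NF-kB is a family of transcription factors held in the cytoplasm by inhibitor proteins of the IkB type. Signals from cytokine or microbial receptors break down the inhibitor, and the freed factors switch on chemokines, cytokines, complement and adhesion genes. They also switch on their own inhibitors, which end the response. In lung epithelium the chemokines made this way call neutrophils and monocytes to the tissue.

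The 6 libraries held 19191920 to 36479629 estimated counts, and 17129 of 60675 genes were tested. The keratins and several other markers of A549 and epithelial cells were present in both groups. The 13 genes summed to 17150 to 17710 CPM (counts relative to the TMM-adjusted library size) in vehicle and 17160 to 19570 CPM at 500 µg/mL. The alveolar markers among them were at or near 0. SFTPA1 was at 0, and NKX2-1, SFTPB and SFTPC reached at most 0.0462, 0.1246 and 0.1365 CPM in any of the 6 libraries. The 12 blood cell markers summed to 5.63 to 8.52 CPM in vehicle and 6.47 to 9.83 CPM at the high dose. PTPRC, CD3E, LYZ, CD163, FCGR3A and MS4A1 were at 0 in all 6 libraries. The 12 fibroblast and endothelial markers summed to 2.62 to 2.89 CPM and 2.21 to 3.24 CPM, with CLEC14A, DCN and KDR at 0. The library PT high replicate 2 stood apart. Regressed on log2 transcript length, its log2 CPM values had a slope of 0.913, against 1.01 to 1.07 in the other 5 libraries. Results are therefore given with and without that library, and where a gene is said to have risen or fallen with no value without it, it was called without it as well. Its part in the calls beyond that was not tested.

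At 500 µg/mL PT, transcripts of several neutrophil and monocyte chemokines, some inhibitors of NF-kB, some complement components and a few other secreted proteins were higher than in vehicle, together with several enzymes of cholesterol synthesis. ID2 and ID4, inhibitors of differentiation, were among the genes that were lower. A gene was called where its adjusted p (edgeR quasi-likelihood test, Benjamini-Hochberg over all genes tested) was under 0.05. By this rule 240 genes changed (1.40% of those tested), of which 184 rose (1.07%) and 56 fell (0.327%), and 3043 genes had an unadjusted p under 0.05. Most changes were small: 156 of the rises and 50 of the falls were under 1.5-fold, while 16 rises and 0 falls reached 2-fold. The 16 were CXCL8, CXCL1, CXCL2, CXCL3, CXCL5, CCL2, IL32, CFB, LCN2, ICAM1, TNFSF14, PDZK1IP1, TRIM31, UBD, FOXQ1 and AC089983.1, and the last 6 are named after their values were seen. In bulk libraries a change in RNA per cell and a change in the share of cells that make it cannot be told apart. The median log2 fold change was 0.34 among the rises, -0.31 among the falls and 0.002 over all genes tested. All 184 rises and 55 of the 56 falls had no overlap between the 3 high-dose and the 3 vehicle libraries. SEMA3F, which encodes a secreted guidance protein and was chosen after its values were seen, was the exception. Among all genes tested 12.1% lay above vehicle in this way and 11.5% below it.

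The count depended on single libraries. It was 62 without PT high replicate 2 (0.362% of genes tested, with 53 rises, 0.309%, and 9 falls, 0.0525%), 74 without vehicle replicate 1 and 71 without vehicle replicate 2. Against PT at 20 µg/mL, 94 genes were called (0.549%), of which 68 rose (0.397%) and 26 fell (0.152%). That count was 54 without PT high replicate 2, 54 without PT low replicate 1 and 56 without PT low replicate 2. Of the genes called against vehicle, 59 of the 184 rises and 16 of the 56 falls were called in the same direction against the low dose, and all 240 had the same sign there. These comparisons share the 3 high-dose libraries. In all, 40 rises and 6 falls were called against vehicle, against the low dose and without PT high replicate 2.

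**Figure D1:**
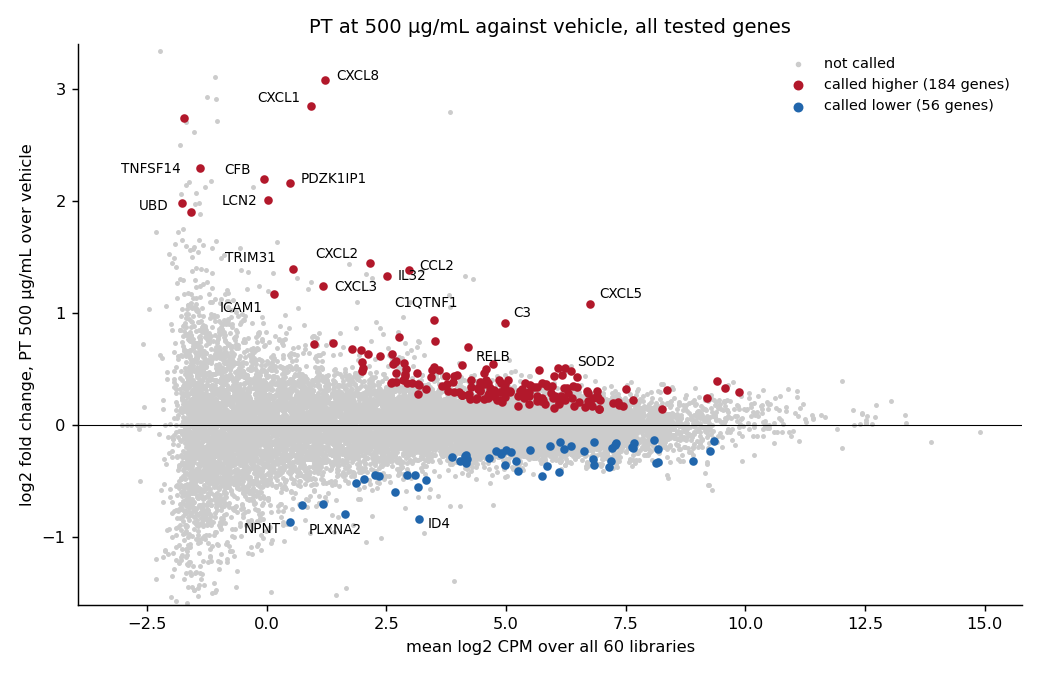
The log2 fold change of PT at 500 µg/mL over vehicle (vertical axis) is plotted against the mean log2 CPM over 60 libraries (horizontal axis), with 1 point per tested gene. The 184 genes called higher are red, the 56 called lower are blue and uncalled genes are grey, and 66 uncalled genes lie beyond the vertical axis, which runs from -1.6 to 3.4. CXCL8 and CXCL1 stand at the top, and no blue point reaches a 2-fold change.

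CXCL8 and CXCL1 had the largest log2 fold changes among the 240 called genes. Of 12 genes in the list of neutrophil and monocyte chemokines, 8 were tested, and 6 of these rose and 0 fell, with a median log2 fold change of 1.31. CXCL6, CCL7, CCL8 and CX3CL1 did not pass the filter on low counts. Each of the 6 also rose against the low dose, without PT high replicate 2, and in a fit on the 6 libraries alone. A share of 6 in 8 stands beside 1.07% of all genes tested. The counts of rises in the lists below stand beside the same share, and their falls beside 0.327%. All lists were chosen with earlier results of these data known, so the counts are descriptions.

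CXCL8 encodes interleukin-8, a neutrophil attractant (ENSG00000169429, chr4:73740506-73743716 on GRCh38, plus strand). Its level was 1.12, 0.941 and 0.568 CPM in the vehicle libraries and 7.54, 7.58 and 7.61 CPM at 500 µg/mL. The 3 high-dose libraries lay close together and far above all vehicle libraries. The log2 fold change was 3.08 ± 0.20 (SE, adjusted p = 1.66e-15), and 3.07 ± 0.22 without PT high replicate 2 (adjusted p = 2.8e-14). At 20 µg/mL it stood at 1.51, 1.25 and 1.41 CPM and at 100 µg/mL at 1.74, 2.21 and 1.54 CPM. CXCL1, a neutrophil chemokine of the same gene cluster (chr4:73869393-73871242), was at 1.12, 0.863 and 1.09 CPM in vehicle and 7.21, 8.32 and 6.62 CPM at the high dose. Vehicle and high-dose values of CXCL1 did not overlap, and the 100 µg/mL libraries (1.92, 1.86 and 1.99 CPM) lay between them. Its log2 fold change was 2.85 ± 0.20 (adjusted p = 1.75e-14).

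CXCL2 and CXCL3 are close paralogs of CXCL1 that also attract neutrophils. Counts were estimated with the tool RSEM, and how it divided reads shared between the 3 genes is not shown, so their single values are less certain. CXCL2 was at 2.04, 2.27 and 3.05 CPM in vehicle and 6.36, 7.03 and 6.5 CPM at 500 µg/mL (log2 fold change 1.45 ± 0.15, adjusted p = 8.77e-10). All 3 libraries at 100 µg/mL, with 3.45, 3.72 and 4.22 CPM, were above all vehicle libraries, as was the case for 6.82% of all genes tested. CXCL3 was at 1.29, 1.96 and 1.29 CPM in vehicle and 3.39, 3.65 and 3.86 CPM at the high dose (1.24 ± 0.19, adjusted p = 4.5e-05). Vehicle replicate 2 was the highest of the controls for CXCL3 and still lay well under the high-dose values. CXCL5, which encodes a further neutrophil chemokine, had 80.5, 87.1 and 86.9 CPM in vehicle, 85.6, 86.4 and 86.9 CPM at 20 µg/mL, 102, 109.7 and 106 CPM at 100 µg/mL and 183, 170.3 and 187 CPM at 500 µg/mL. Its low-dose values lay within the range of vehicle, and its medium-dose values lay between vehicle and the high dose. The log2 fold change at the high dose was 1.09 ± 0.05 (adjusted p = 2.61e-21).

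CCL2, the monocyte chemokine MCP-1 on chromosome 17, was at 6.11, 5.69 and 5.99 CPM in vehicle and 14.4, 17.8 and 14.3 CPM at the high dose (1.38 ± 0.13, adjusted p = 3.89e-10). PT high replicate 2 gave its highest value, and without that library the log2 fold change was 1.28 ± 0.14 (adjusted p = 2.74e-08). CXCL16, a membrane-bound chemokine, and CCL20, which attracts immature dendritic cells, did not pass the test. CXCL16 had a log2 fold change of 0.10 ± 0.06 (adjusted p = 0.387). CCL20 stayed under 1 CPM, at 0.249, 0.196 and 0.155 CPM in vehicle and 0.492, 0.185 and 0.355 CPM at 500 µg/mL (0.82 ± 0.43, adjusted p = 0.306).

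**Figure D2:**
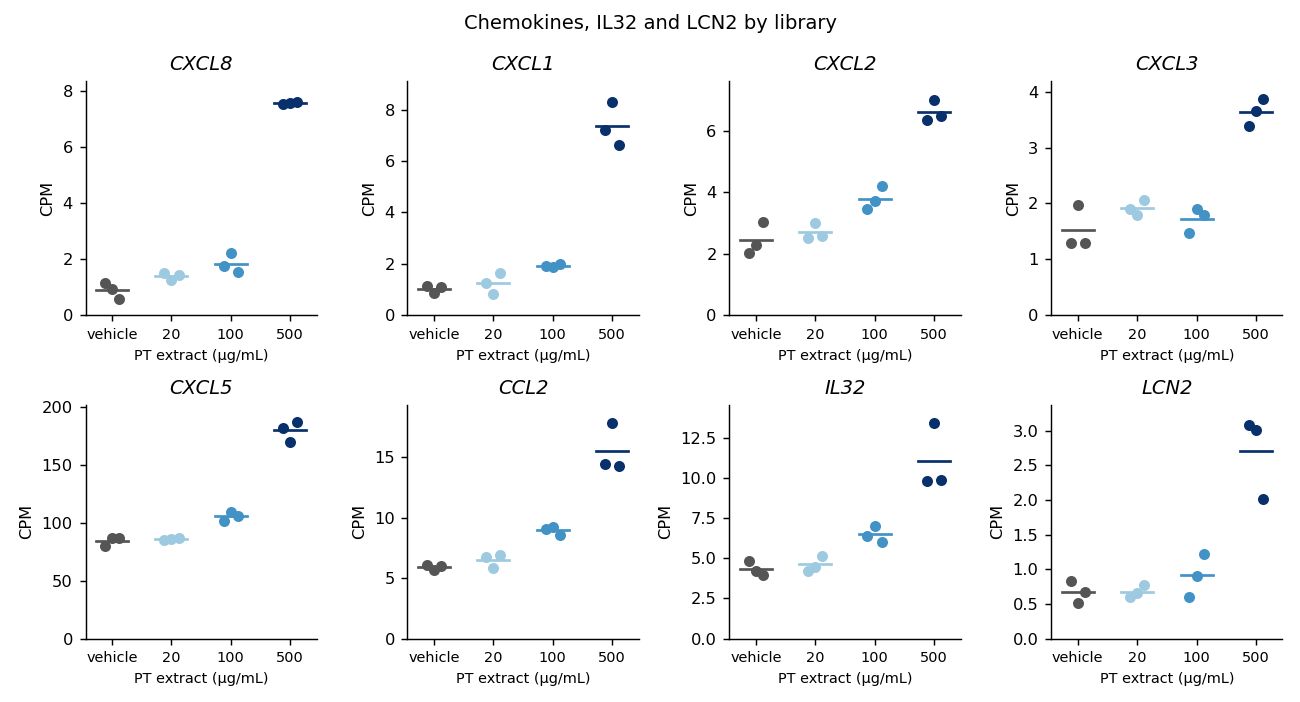
Each panel plots the CPM of 1 gene (vertical axis, from 0) in the 3 libraries of vehicle and of PT at 20, 100 and 500 µg/mL (horizontal axis), with points for libraries and a line for their mean. In all 8 panels the 3 libraries at 500 µg/mL lie above every vehicle library, as for CXCL5 with 170.3 to 187 CPM against 80.5 to 87.1 CPM.

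The 5 CXCL genes that rose share a 9-letter site before their RefSeq start. The 250 bases upstream of each RefSeq gene start (GRCh38.p14) were searched on both strands for GGAATTTCC, a sequence of the kind that NF-kB dimers bind, whose reverse complement is GGAAATTCC. It was chosen with the CXCL promoters in view, and CXCL1, CXCL2 and CXCL3 are neighbouring paralogs, so its presence there is no independent result. Of 11742 tested genes with a promoter in the table, 0.502% held a match, as did 0.502% of all 27305 genes in the table. Among the rises 10 of 145 (6.9%) held one, and among the falls 0 of 42, too few genes for a share of 0.502% to show. Tested list genes that were not called held a match too, among them NFKB1, REL, NFKBIZ, TNFRSF9, OAS3, DUSP6 and ATG5. Of the 47 rises that were called against the low dose as well, 9 (19.1%) did. The 10 genes were CXCL1, CXCL2, CXCL3, CXCL5, CXCL8, ICAM1, NFKBIA, NFKBIB, MAP3K8 and OPTN, and NFKBIB was the 1 not called against the low dose. A match is a description of letters, and binding was not measured. The windows of 9 of them run from 10 bases before the match to 10 bases after it, 5′ to 3′ on the strand of the gene, with the match in capitals, and they show how far the likeness of the paralogs extends past the site.
CXCL8 (chr4:73740468-73740496): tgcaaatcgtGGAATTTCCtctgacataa
CXCL1 (chr4:73869305-73869333): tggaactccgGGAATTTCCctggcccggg
CXCL2 (chr4:74099254-74099282): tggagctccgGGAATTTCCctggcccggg
CXCL3 (chr4:74038749-74038777): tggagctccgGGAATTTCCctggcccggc
CXCL5 (chr4:73998749-73998777): atgagttcagGGAATTTCCccagcatccc
ICAM1 (chr19:10270924-10270952): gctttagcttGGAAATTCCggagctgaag
NFKBIA (chr14:35404812-35404840): tgactggcttGGAAATTCCccgagcctga
NFKBIB (chr19:38899932-38899960): ggcgtggtggGGAATTTCCcgcagggcgg
MAP3K8 (chr10:30433982-30434010): ggggagacgcGGAATTTCCcagcgcgggg

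The match began 91 bases before the RefSeq start of CXCL8 and 78 before that of CXCL1 and CXCL3. It began 77 bases before that of CXCL2 and 90 before that of CXCL5. In ICAM1, NFKBIA and OPTN it lay on the minus strand of the gene. GENCODE 29 places some starts further upstream, and by its bounds the matches of CXCL2, CXCL3, CXCL5, MAP3K8 and OPTN lie inside the gene. NFKBIB has another RefSeq start further upstream, and its match lies downstream of that start. Longer upstream sequence, ending where the GENCODE 29 gene begins, is given for the chemokine with the largest change, for CXCL1 and for the inhibitor NFKBIA, again with the match in capitals. The CXCL8 stretch is 187 bases long and the other two are 250 bases long.
CXCL8 (chr4:73740319-73740505, plus strand): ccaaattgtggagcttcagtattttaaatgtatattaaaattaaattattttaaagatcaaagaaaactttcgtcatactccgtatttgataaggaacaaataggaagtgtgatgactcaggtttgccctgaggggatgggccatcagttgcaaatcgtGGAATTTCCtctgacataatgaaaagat
CXCL1 (chr4:73869143-73869392, plus strand): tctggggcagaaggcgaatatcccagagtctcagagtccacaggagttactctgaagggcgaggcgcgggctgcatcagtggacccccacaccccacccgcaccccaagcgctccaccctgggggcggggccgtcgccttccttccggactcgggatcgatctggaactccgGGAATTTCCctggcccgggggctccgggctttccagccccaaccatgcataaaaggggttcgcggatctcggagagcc
NFKBIA (chr14:35404750-35404999, minus strand): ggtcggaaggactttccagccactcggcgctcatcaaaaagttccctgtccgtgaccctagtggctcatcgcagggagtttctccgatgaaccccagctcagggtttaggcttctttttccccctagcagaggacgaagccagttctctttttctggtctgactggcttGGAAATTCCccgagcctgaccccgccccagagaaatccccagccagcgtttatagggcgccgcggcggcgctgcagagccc

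Some of the genes that hold NF-kB back and some of its subunits rose at the high dose. All 20 genes in the list of NF-kB subunits and feedback inhibitors were tested, 9 rose, 0 fell, 11 did not pass and the median log2 fold change was 0.25. Against the low dose 7 rose. The count was 5 without PT high replicate 2, 5 without vehicle replicate 1, 4 without vehicle replicate 2 and 2 in the fit on the 6 libraries alone. NFKBIA, which encodes the inhibitor IkB-alpha, was at 44.3, 43 and 47.8 CPM in vehicle and 56.4, 57.6 and 57 CPM at 500 µg/mL (0.34 ± 0.07, adjusted p = 0.00379). The groups were narrow and did not overlap, and without PT high replicate 2 the change was 0.33 ± 0.08 (adjusted p = 0.0276). The call was lost without vehicle replicate 2 and in the fit on the 6 libraries alone. TNFAIP3 encodes A20, an enzyme that edits ubiquitin chains on signalling proteins of the pathway. It was at 6.98, 5.88 and 6.46 CPM in vehicle and 10.1, 8.55 and 9.85 CPM at the high dose (0.57 ± 0.10, adjusted p = 0.000759). TNIP1, the partner of A20, was at 77.4 to 79.6 CPM in vehicle and 99 to 103 CPM at the high dose (0.35 ± 0.05, adjusted p = 7.69e-07). BIRC3, a ubiquitin ligase that acts at the TNF receptor, was at 38 to 38.9 CPM in vehicle and 49 to 51.8 CPM at the high dose (0.38 ± 0.06, adjusted p = 2.87e-05). For TNIP1 and BIRC3 the 20 µg/mL libraries lay at 76.5 to 82.1 and 37.3 to 39.6 CPM, near vehicle.

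Of the subunits, RELB and NFKB2, the pair of the non-canonical arm, rose. RELB was at 14.2, 13.7 and 13.6 CPM in vehicle and 19.1, 26.8 and 22 CPM at 500 µg/mL (0.70 ± 0.09, adjusted p = 1.72e-06). PT high replicate 2 held the highest value, and without it the change was 0.57 ± 0.09 (adjusted p = 0.00021). NFKB2 changed by 0.26 ± 0.06 (adjusted p = 0.0166), a call lost without PT high replicate 2 (adjusted p = 0.0817). RELA and NFKB1, the subunits of the canonical dimer, had log2 fold changes of 0.07 ± 0.05 and 0.07 ± 0.07 (adjusted p = 0.451 and 0.555). Their values at the high dose overlapped those of vehicle. NFKBIB, which encodes IkB-beta, BCL3, a nuclear relative of the inhibitors, and IKBKE, a kinase, rose by 0.35, 0.26 and 0.37 on the log2 scale. The calls of these 3 were lost without PT high replicate 2, with adjusted p of 0.331, 0.0911 and 0.187.

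Counts of receptors and adaptors upstream of NF-kB stand beside the 1.07% of all genes tested that rose. In the list of toll-like and IL-1 receptor signalling 1 of 15 tested genes rose and 0 fell (median 0.04), and in that of TNF superfamily receptors and death signalling 0 of 14 passed in either direction (median -0.02). The riser was IRAK2, a kinase-like adaptor of those receptors, at 7.77, 8.47 and 8.83 CPM in vehicle and 12.1, 10.9 and 12.2 CPM at the high dose (0.49 ± 0.08, adjusted p = 0.000123). Several further genes of signalling that rose are named after their values were seen. MAP3K8, a kinase of the ERK branch that is bound by the precursor of NFKB1, was at 21.1 to 22.3 CPM in vehicle and 27.1 to 28.1 CPM at 500 µg/mL (0.34 ± 0.06, adjusted p = 0.00126). OPTN, a ubiquitin-binding adaptor, was at 21.9 to 24.3 CPM in vehicle and 27.9 to 31.4 CPM at the high dose (0.38 ± 0.06, adjusted p = 6.08e-05). LTBR, the lymphotoxin receptor, and IFNGR1, a chain of the interferon-gamma receptor, rose by 0.20 and 0.26, calls lost without PT high replicate 2 (adjusted p = 0.209 and 0.259). ZC3H12A, an RNase that degrades cytokine mRNA, rose by 0.30 (adjusted p = 0.0263, and 0.0936 without that library).

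Cytokines were mostly too low to test: of 17 genes in the list 9 passed the filter, and IL1A, IL1B, IL6, IL23A, CSF2, CSF3, TNF and IL7R did not. Of the 9, 3 rose and 0 fell (median 0.16), and 1 rose in the fit on the 6 libraries alone. IL32, a cytokine of epithelial and lymphoid cells, was at 4.82, 4.24 and 3.98 CPM in vehicle, 6.37, 7.04 and 6.04 CPM at 100 µg/mL and 9.8, 13.4 and 9.89 CPM at 500 µg/mL. Medium-dose libraries were all above vehicle and all under the high dose. The log2 fold change was 1.33 ± 0.14 (adjusted p = 2.99e-09), and 1.18 ± 0.14 without PT high replicate 2, the highest of its group (adjusted p = 2.66e-07). CSF1, the macrophage growth factor, rose by 0.24 ± 0.05 (adjusted p = 0.0117), a call lost without vehicle replicate 2, and TNFAIP2, a protein induced by TNF, by 0.31 ± 0.05 (adjusted p = 4.72e-05). TNFSF14, the ligand LIGHT of LTBR, was named after its values were seen. Its level was 0.166, 0.0784 and 0.207 CPM in vehicle, from 2 to 4 counts a library, and 0.792, 0.74 and 0.67 CPM at the high dose, from 16 to 29 counts. The fitted log2 fold change of 2.30 ± 0.44 (adjusted p = 0.00155) rests on those counts. TNFSF14 was not called by DESeq2 or in the fit on the 6 libraries alone. AREG, an EGF receptor ligand also named in this way, rose by 0.38 ± 0.09 (adjusted p = 0.0214), and by 0.29 ± 0.10 without PT high replicate 2 (adjusted p = 0.319).

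Among complement and acute phase genes 5 of 19 tested rose and 0 fell, and the median of the list was 0.03. The same count was found against the low dose and without PT high replicate 2, while DESeq2 called 4 and not CFB. C3, the central complement component, was at 29.8, 28.5 and 29 CPM in vehicle and 57.3, 50.2 and 56.8 CPM at 500 µg/mL (0.91 ± 0.09, adjusted p = 3.89e-10). Values at 20 µg/mL (30.1 to 33.4 CPM) and at 100 µg/mL (34.4 to 35.3 CPM) lay between. CFB, the protease of the alternative pathway, was at 0.457, 0.627 and 0.568 CPM in vehicle and 2.43, 2.63 and 2.56 CPM at the high dose. The high-dose libraries agreed closely, and the log2 fold change was 2.19 ± 0.25 (adjusted p = 2.56e-08). C1R and C1S, neighbouring genes for the proteases of the C1 complex, rose by 0.40 ± 0.05 and 0.35 ± 0.03 (adjusted p = 2.82e-06 and 3.93e-10). LCN2, which encodes lipocalin-2, a binder of bacterial siderophores, was at 0.831, 0.51 and 0.671 CPM in vehicle and 3.09, 3.0 and 2.01 CPM at 500 µg/mL (2.01 ± 0.25, adjusted p = 2.2e-07). PT high replicate 3 was the lowest of its group and still above every control.

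Other secreted proteins, surface proteins and enzymes rose as well. C1QTNF1, a secreted protein with a C1q-like domain, was at 9.93, 8.43 and 8.52 CPM in vehicle and 17.7, 16.9 and 17.2 CPM at 500 µg/mL (0.94 ± 0.08, adjusted p = 3.16e-12). EFNA1, an ephrin ligand that is known to respond to TNF, was at 10.8, 9.8 and 9.87 CPM in vehicle and 16.1, 17.5 and 17.8 CPM at the high dose (0.75 ± 0.09, adjusted p = 2.12e-07). For both genes the groups were far apart. PDZK1IP1, which encodes a small membrane protein of epithelia and was named after its values were seen, was at 0.831, 0.549 and 0.93 CPM in vehicle and 2.89, 3.93 and 3.51 CPM at the high dose (2.16 ± 0.24, adjusted p = 1.36e-08). MMP7, matrilysin, was the single riser among 27 tested genes of TGF-beta and matrix, at 3.95, 3.84 and 4.34 CPM in vehicle and 5.32, 7.44 and 5.99 CPM at the high dose (0.62 ± 0.11, adjusted p = 0.000434). The naming rule also took TPGS1, a gene for a tubulin-modifying complex, and PRRT3-AS1, an antisense RNA, at 0.79 ± 0.18 and 0.73 ± 0.19. Whether counting used strand is not given, so reads of PRRT3-AS1 cannot be told from those of its partner gene. Both calls were lost without PT high replicate 2 (adjusted p = 0.317 and 0.313).

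SOD2, the mitochondrial superoxide dismutase, was at 88, 89.9 and 85.5 CPM in vehicle, 84.7, 87.5 and 81.6 CPM at 20 µg/mL, 92.4, 93.5 and 87.5 CPM at 100 µg/mL and 119.7, 117 and 119 CPM at 500 µg/mL. The lower doses stayed around vehicle and all 3 high-dose libraries stood clear above (0.43 ± 0.04, adjusted p = 3.89e-10). The list of prostaglandin synthesis and inflammatory enzymes held 2 rises and 0 falls among 13 tested genes (median 0.05), SOD2 and PTGES, a prostaglandin E synthase, at 0.28 ± 0.08 (adjusted p = 0.048). The PTGES call was lost without PT high replicate 2 (adjusted p = 0.243), and the list's count was 1 without that library, PT high replicate 3 or any vehicle library. PTGS2, cyclooxygenase-2, had 0.20 ± 0.12 (adjusted p = 0.352). ASS1, an enzyme of arginine synthesis named after its values were seen, was at 9.18 to 10.8 CPM in vehicle and 14 to 14.5 CPM at the high dose (0.49 ± 0.08, adjusted p = 0.000183). ICAM1, the ligand of leukocyte integrins, was the 1 riser among 14 tested adhesion molecules and mucins. It was low, with 0.54, 0.863 and 0.878 CPM in vehicle and 1.34, 1.99 and 1.89 CPM at the high dose, a change of 1.17 ± 0.25 (adjusted p = 0.00532), and the call was lost without PT high replicate 2 (adjusted p = 0.0589) or vehicle replicate 1.

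Of 19 tested genes of antigen presentation 2 rose and 0 fell, with a median of 0.21, and 1 rose without PT high replicate 1 or 2 or any vehicle library. TAPBP, tapasin of the peptide-loading complex, was at 76.2, 72.9 and 73.5 CPM in vehicle and 94.4, 85 and 92.4 CPM at 500 µg/mL (0.29 ± 0.06, adjusted p = 0.00161). PSME1, a proteasome activator subunit, rose by 0.37 ± 0.10 (adjusted p = 0.0344, and 0.349 without PT high replicate 2). UBD, a ubiquitin-like modifier, and TRIM31, a ubiquitin ligase, were among the rises of at least 2-fold and were named after their values were seen. TRIM31 was at 0.873, 0.549 and 1.19 CPM in vehicle and 2.4, 1.8 and 2.44 CPM at the high dose (1.39 ± 0.24, adjusted p = 0.000434). UBD stayed under 1 CPM in every library, at 0.0517 to 0.249 CPM and 0.434 to 0.647 CPM, and its call was lost without PT high replicate 2 (adjusted p = 0.115). LGALS3BP, a secreted lectin-binding glycoprotein named likewise, rose by 0.29 ± 0.05 (adjusted p = 0.000563). It was not called against the low dose (adjusted p = 0.163). None of the 26 tested genes of the interferon response (median 0.11) and none of the 14 of JAK-STAT3 feedback (median 0.06) passed the test in either direction.

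**Figure D3:**
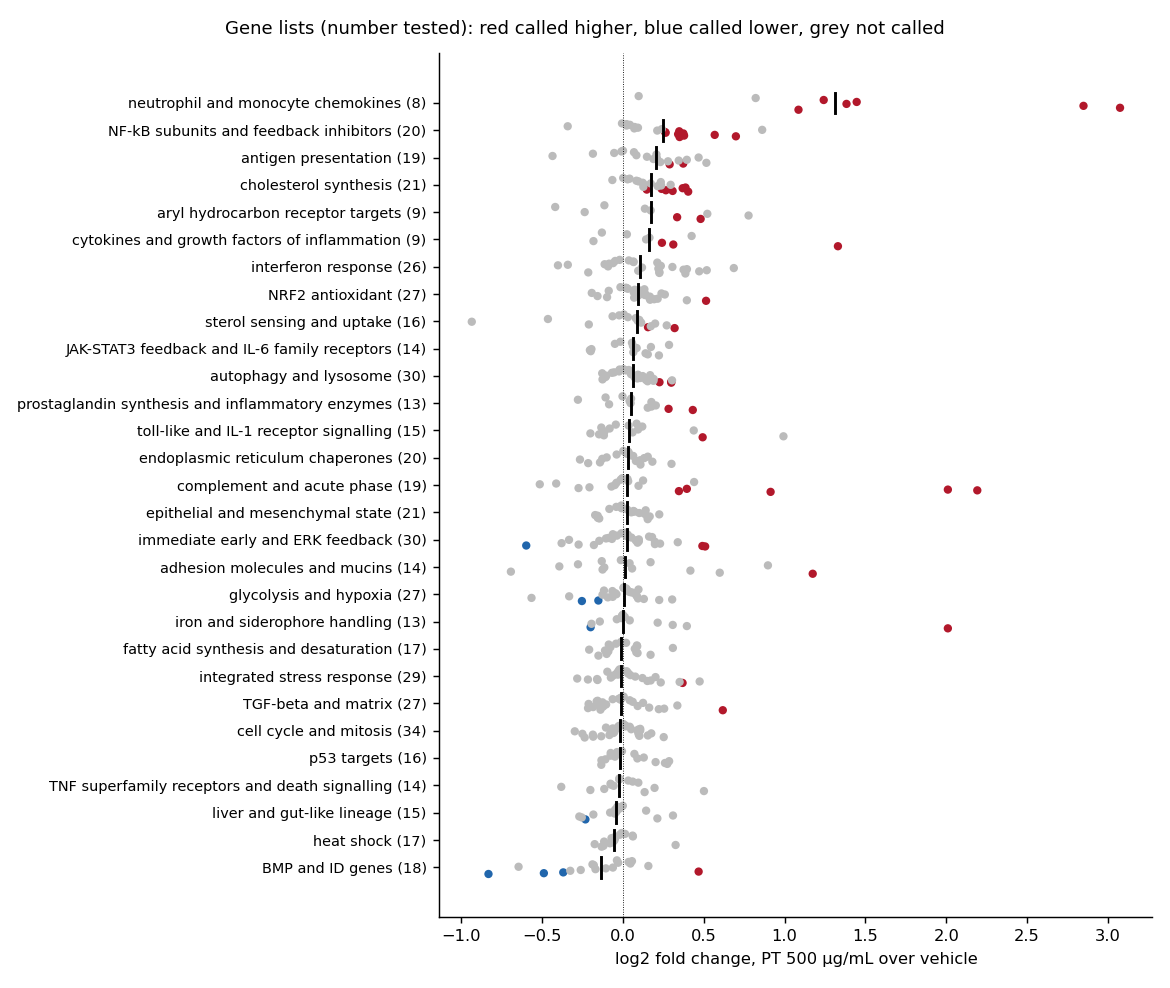
Points show the log2 fold change of PT at 500 µg/mL over vehicle (horizontal axis) for each tested gene of the 29 lists (vertical axis, number tested in parentheses), with red for called higher, blue for called lower, grey for not called and a black bar for the list median. The chemokine list has the highest median at 1.31, and the list of BMP and ID genes the lowest at -0.14.

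Of 21 tested genes of cholesterol synthesis 7 rose, 0 fell and 14 did not pass, and the median was 0.17. Over all genes tested 1.07% rose. Against the low dose 4 rose. The count was 4 without PT high replicate 2, 3 without vehicle replicate 1, 3 without vehicle replicate 2, 4 with the size factors of DESeq2 and 0 in the fit on the 6 libraries alone. LSS, which closes the sterol rings, was at 37.6, 35.9 and 38.4 CPM in vehicle and 45.1, 47.6 and 45.8 CPM at 500 µg/mL (0.31 ± 0.05, adjusted p = 0.00044). MSMO1, a sterol demethylating oxidase, was at 40.8, 41.6 and 41.2 CPM in vehicle and 49.9, 48 and 50.7 CPM at the high dose (0.27 ± 0.05, adjusted p = 0.00187). In both genes PT high replicate 2 lay near the other 2 libraries of its dose, and the changes without it were 0.29 ± 0.06 and 0.29 ± 0.06. CYP51A1, a lanosterol demethylase, rose by 0.15 ± 0.04 (adjusted p = 0.0253), a call lost without any 1 vehicle library or PT high replicate 3. MVK, mevalonate kinase, rose by 0.40 ± 0.07 (adjusted p = 0.000262) but was not called against the low dose (adjusted p = 0.0625). MVD, the decarboxylase of the mevalonate pathway, was at 24.1, 33.1 and 24.1 CPM at the high dose, with replicate 2 apart from the others, against 21.9, 20.4 and 20.3 CPM in vehicle. The calls of MVD, FDFT1 and TM7SF2, enzymes of the same route, were lost without that library (adjusted p = 0.656, 0.349 and 0.404).

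Of 16 tested genes of sterol sensing and uptake 2 rose and 0 fell, and 1 rose without PT high replicate 2 or 3 or any vehicle library. INSIG1, which retains the sterol sensor in the endoplasmic reticulum, was at 35.6, 36.1 and 39.2 CPM in vehicle, 37.1, 36.7 and 35.6 CPM at 20 µg/mL, 38.5, 35.8 and 36.7 CPM at 100 µg/mL and 46.7, 46.5 and 45.1 CPM at 500 µg/mL. Values at 20 and 100 µg/mL overlapped vehicle and those at 500 µg/mL lay above it (0.32 ± 0.05, adjusted p = 0.000219). SCAP, the sterol sensor itself, rose by 0.16 ± 0.04, a call lost without PT high replicate 2 (adjusted p = 0.431). In fatty acid synthesis and desaturation 0 of 17 tested genes passed in either direction (median -0.01), and FASN, fatty acid synthase, had 0.09 ± 0.09 (adjusted p = 0.612). With the transcript length slope as a covariate 4 of the 17 rose, FASN among them at 0.25 (adjusted p = 0.00311). CYP1B1, a monooxygenase induced through the aryl hydrocarbon receptor, was at 56.4, 54.7 and 53.3 CPM in vehicle and 78, 67.3 and 84 CPM at the high dose, where PT high replicate 2 was the lowest. Its relative CYP1A1 was at 0.863 to 1.24 CPM in vehicle and 1.62 to 1.85 CPM at the high dose and did not pass (0.78 ± 0.23, adjusted p = 0.0743). In the list of aryl hydrocarbon receptor targets 2 of 9 tested genes rose and 0 fell, and 5 rose with the transcript length slope as a covariate, where CYP1A1 passed (adjusted p = 0.0475). The other riser was ALDH3A1, an aldehyde dehydrogenase, whose call was lost without PT high replicate 2 (adjusted p = 0.187), and the count was 1 without vehicle replicate 1 or 2.

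Of 18 tested BMP and ID genes 3 fell, 1 rose and the median was -0.14. The 3 falls were called with any of the 6 libraries left out, and 0 fell in the fit on the 6 libraries alone. ID proteins bind basic helix-loop-helix factors and keep them off DNA, and they are textbook targets of BMP signalling. ID4 was at 9.47, 9.84 and 9.66 CPM in vehicle and 4.42, 5.45 and 6.58 CPM at 500 µg/mL (-0.83 ± 0.12, adjusted p = 1.2e-05). It was at 10.5, 7.6 and 9.32 CPM at 20 µg/mL and 6.84, 5.46 and 6.81 CPM at 100 µg/mL, where all 3 libraries were already under vehicle. ID2 was at 143, 153 and 155 CPM in vehicle, 117, 121 and 119 CPM at the medium dose and 109.5, 128 and 112 CPM at the high dose (-0.37 ± 0.08, adjusted p = 0.00456). ATOH8, a helix-loop-helix factor that responds to BMP, was at 9.89, 9.25 and 9.4 CPM in vehicle, 5.52, 6.17 and 6.12 CPM at the medium dose and 6.44, 8.13 and 5.91 CPM at the high dose (-0.49 ± 0.10, adjusted p = 0.00456). In ID2 and ATOH8 PT high replicate 2 was the highest of its dose, and the falls without it were -0.44 ± 0.08 and -0.62 ± 0.11. ID3 did not pass (-0.33 ± 0.10, adjusted p = 0.0726), although its high-dose values of 119 to 126 CPM lay under the 147 to 162 CPM of vehicle. In 4 of 12 alternatives ID3 was called as a fall. For ID4, ID2, ID3 and ATOH8 the 3 medium-dose libraries lay under the 3 vehicle libraries, which held for 6.10% of all genes tested. Against the low dose 1 gene of the list fell, ID4, with -0.75 ± 0.12 (adjusted p = 7.94e-05). The riser was GREM1, a secreted BMP antagonist, at 5.32, 4.43 and 5.37 CPM in vehicle and 6.09, 7.35 and 7.57 CPM at the high dose (0.47 ± 0.13, adjusted p = 0.0454). Its call was lost without PT high replicate 2 (adjusted p = 0.269), PT high replicate 3 or any vehicle library.

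**Figure D4:**
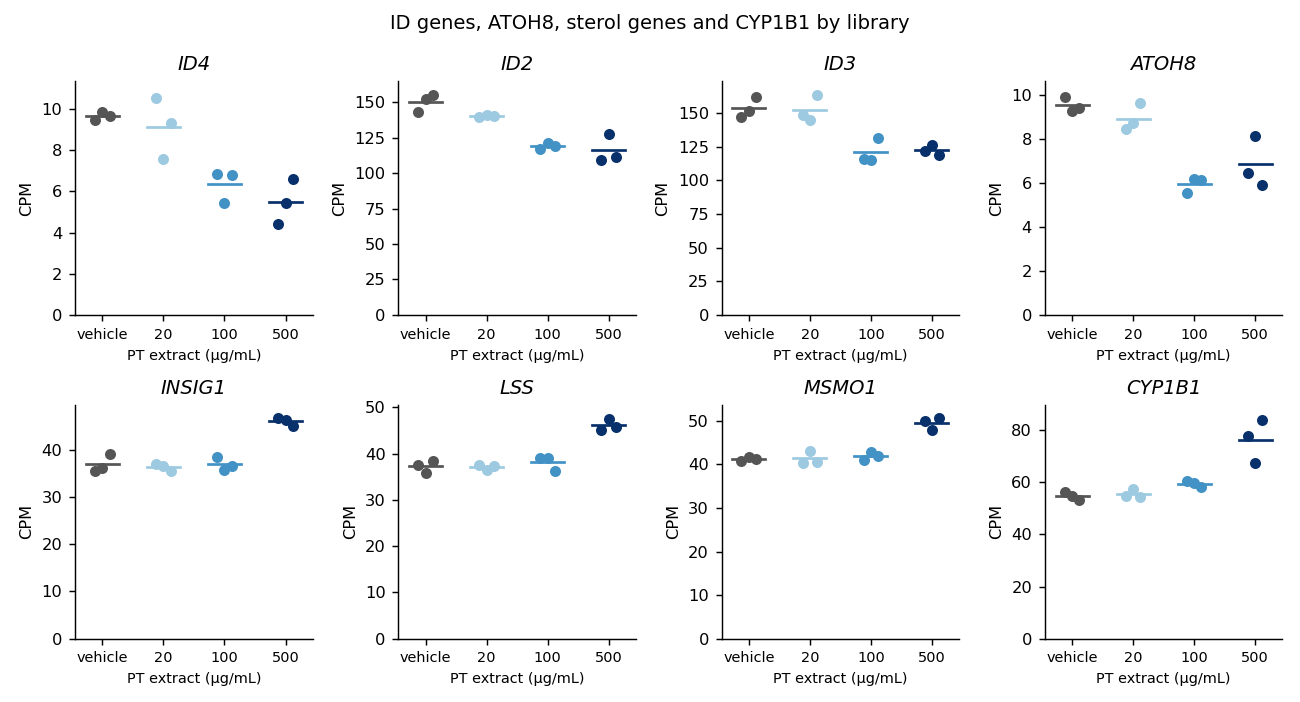
Each panel plots the CPM of 1 gene (vertical axis, from 0) in the 3 libraries of vehicle and of PT at 20, 100 and 500 µg/mL (horizontal axis), with points for libraries and a line for their mean. ID4, ID2, ID3 and ATOH8 are lower at 100 and at 500 µg/mL than in every vehicle library, whereas INSIG1, LSS and MSMO1 are above every vehicle library at 500 µg/mL and overlap vehicle at 20 µg/mL.

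Other falls were spread over unrelated genes, and most were below 1.5-fold. DIO2, a deiodinase that activates thyroid hormone, was at 65.1, 63.7 and 66.4 CPM in vehicle, 55.8, 54.7 and 55.7 CPM at 100 µg/mL and 48.3, 43.6 and 51.1 CPM at 500 µg/mL (-0.45 ± 0.07, adjusted p = 6.08e-05). Medium-dose libraries lay between vehicle and high dose, and without PT high replicate 2 the fall was -0.39 ± 0.08 (adjusted p = 0.00363). NR4A3, an orphan nuclear receptor of the immediate early class, was at 8.93, 9.02 and 8.26 CPM in vehicle and 5.52, 5.55 and 6.31 CPM at the high dose (-0.60 ± 0.14, adjusted p = 0.0168). PLXNA2, a semaphorin receptor, was at 2.95, 2.9 and 3.2 CPM in vehicle and 2.05, 1.57 and 1.5 CPM at the high dose (-0.79 ± 0.21, adjusted p = 0.0382). The groups of both were separate, but without PT high replicate 2 neither was called (adjusted p = 0.105 and 0.244). The other genes with the largest falls by the naming rule were MFSD4B, PCDHB5, FRMD3, DCDC1, NCKAP5 and the loci AC015813.5 and AC124944.3, the latter a pseudogene that may share reads with its parent gene, with log2 fold changes from -0.70 to -0.44. None of these 7 was called without PT high replicate 2 or against the low dose.

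Further falls are named after their values were seen. ADGRG1, an adhesion receptor, was at 131, 123 and 123 CPM in vehicle and 101, 97 and 97.8 CPM at the high dose (-0.35 ± 0.06, adjusted p = 6.53e-05), and it was called without PT high replicate 2 and against the low dose too (adjusted p = 0.00135 and 5.9e-05). HR, a nuclear corepressor, was at 39.3, 36.9 and 38.3 CPM in vehicle and 32.4, 27.8 and 31.1 CPM at the high dose (-0.32 ± 0.06, adjusted p = 0.0004). JAG1, a Notch ligand, fell by 0.34 on the log2 scale and SKIL, a repressor of TGF-beta signalling, by 0.31. In both PT high replicate 2 was the lowest library of its dose, with 201 and 114 CPM, and the calls were lost without it (adjusted p = 0.261 and 0.147). HNF4A, a factor of liver and gut identity, was at 115, 108 and 110.0 CPM in vehicle and 99.4, 88.5 and 95.4 CPM at 500 µg/mL (-0.23 ± 0.06, adjusted p = 0.0242, and 0.293 without that library). It was the 1 fall among 15 tested genes of its list. In glycolysis and hypoxia 2 of 27 fell and 0 rose, and 1 was SLC2A3, a glucose transporter, at -0.25 ± 0.06 (adjusted p = 0.0174, and 0.0756 without that library). The other was HK1, a hexokinase, which was not called without that library (adjusted p = 0.172). The glycolysis count was 1 without PT high replicate 1 or vehicle replicate 1 and 0 without any other of the 6 libraries, and HNF4A was also lost without vehicle replicate 1.

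In lists of stress and growth programmes the counts are read beside the 1.40% called over all genes tested, a share that would be under 1 gene in a list of this size. Of 29 tested genes of the integrated stress response 1 rose, GDF15, a secreted stress factor, at 0.37 ± 0.09 (adjusted p = 0.0279, and 0.189 without PT high replicate 2). No gene passed among 20 endoplasmic reticulum chaperones, 17 heat shock genes, 16 p53 targets, 34 genes of cell cycle and mitosis, and 21 of epithelial and mesenchymal state. Their medians lay between -0.05 and 0.03. Of 27 NRF2 antioxidant genes 1 rose, MT2A, a metallothionein, at 0.51 ± 0.13 (adjusted p = 0.0291, and 0.378 without that library). In autophagy and lysosome 3 of 30 rose: SQSTM1, the cargo receptor p62, with 766 to 815 CPM in vehicle and 942 to 1017 CPM at the high dose, and the lysosomal enzymes CTSD and NEU1. The count was 1 without PT high replicate 2, without vehicle replicate 1 or without vehicle replicate 2. SQSTM1 was called without PT high replicate 2 (adjusted p = 0.0128). Among 30 immediate early and ERK feedback genes 1 fell, NR4A3, and 2 rose, JUND, an AP-1 subunit, at 0.49 ± 0.11 and IER3, an early response gene that NF-kB is known to induce, at 0.51 ± 0.10. Both calls were lost without that library (adjusted p = 0.1 and 0.154), and 0 of the list rose without vehicle replicate 1 or 2. GDF15 and MT2A were likewise not called without vehicle replicate 1 or 2. In all, 548 of 607 genes on the 29 lists were tested, and 49 of them rose and 8 fell. Over all genes tested 1.07% rose and 0.327% fell, and the lists were chosen with earlier results of these data known.

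Called genes differed in transcript length. The median longest transcript was 3213 bases over all genes tested, 2452 bases among the rises and 4641 bases among the falls. Rises also called against the low dose had a median of 2935 bases and the other rises 2366 bases. Across 17007 genes with a length, the log2 fold change had a Spearman correlation of -0.35 with length, and -0.23 without PT high replicate 2. Genes share libraries and are not independent replicates, so this is a description. With each library's length slope as a covariate, 124 of the 184 rises and 35 of the 56 falls were called, all 6 chemokines, the 9 NF-kB genes and the 5 complement genes among them. The largest chemokine changes were of like size in that fit, 3.00 ± 0.20 for CXCL8, 2.68 ± 0.19 for CXCL1 and 1.08 ± 0.05 for CXCL5. AKR1B1, an aldose reductase named after its values were seen, lost a larger share of its change, though it was still called with the covariate. It was at 605, 599 and 626 CPM in vehicle and 704, 946 and 763 CPM at the high dose, with PT high replicate 2 far above the others, and its log2 fold change went from 0.40 ± 0.10 to 0.21 ± 0.04 with the covariate. Without that library it was not called (adjusted p = 0.46).

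**Figure D5:**
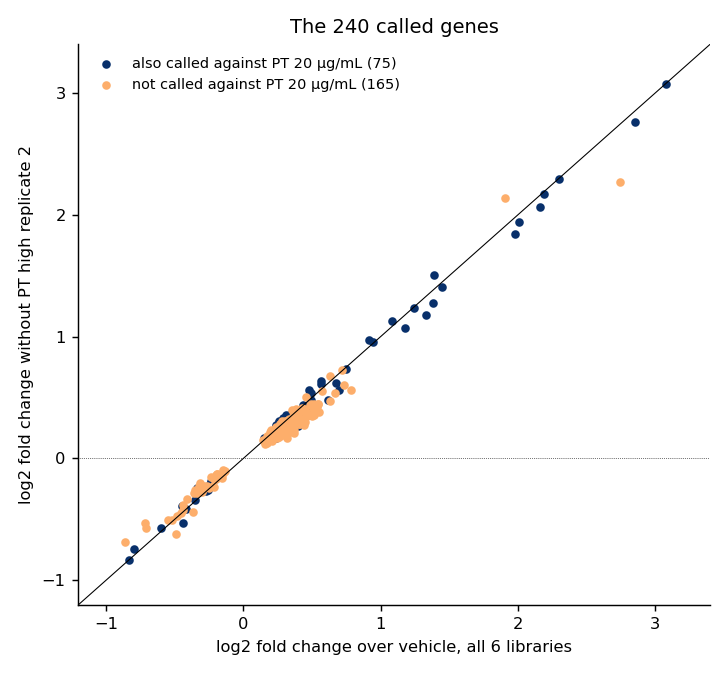
Each point is 1 of the 240 called genes, with its log2 fold change over vehicle from all 6 libraries (horizontal axis) and without PT high replicate 2 (vertical axis), and the line marks equal values. Dark points are the 75 genes also called against PT at 20 µg/mL. All 240 points keep their sign, and the points above 1 lie near the line except AC089983.1, a locus not called without that library and of at most 0.555 CPM in any of the 6 libraries.

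The high doses of the other 5 extracts share the same 3 vehicle libraries. They were 230 µg/mL for Scutellariae Radix, 130 µg/mL for Coptidis Rhizoma and 500 µg/mL for Zingiberis Rhizoma (dried ginger), Zingiberis Rhizoma Recens (fresh ginger) and Zizyphi Fructus (jujube). Mean CXCL8 was 0.877 ± 0.282 CPM (SD, n = 3) in vehicle. It was 7.57 ± 0.0361 CPM with PT, 5.71 ± 0.432 with Scutellariae Radix, 4.09 ± 0.365 with Coptidis Rhizoma, 4.69 ± 0.591 with dried ginger, 1.27 ± 0.377 with fresh ginger and 0.944 ± 0.336 with jujube. Scutellariae Radix had the mean nearest to that of PT. Mean CXCL2 was 6.63 ± 0.349 CPM with PT, 10.4 ± 0.656 with Scutellariae Radix, 10.5 ± 0.28 with Coptidis Rhizoma, 5.63 ± 0.732 with dried ginger, 4.32 ± 0.468 with fresh ginger and 3.25 ± 0.248 with jujube, so both Scutellariae Radix and Coptidis Rhizoma lay above PT. Mean CFB was 2.54 ± 0.104 CPM with PT, 0.783 ± 0.259 with Scutellariae Radix, 0.551 ± 0.153 with Coptidis Rhizoma, 1.17 ± 0.242 with dried ginger, 0.657 ± 0.169 with fresh ginger and 0.512 ± 0.0737 with jujube. Wortmannin, a compound in the series that was not an extract, had means of 2.1 ± 0.416 CPM for CXCL8, 2.39 ± 0.152 for CXCL2 and 1.71 ± 0.269 for CFB. Its CFB mean was nearer to that of PT than the mean of any other extract. The doses differ, and differences between these treatments were not tested here.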

How the data were processed

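RNA of A549 cells was made into libraries and sequenced with paired reads of 100 bases, per the labels' protocols. The authors deposited estimated counts for each Ensembl gene without normalisation, as the values show. Per the submitters' processing notes, the tools were STAR 2.7.3a, RSEM 1.3.3, Trim Galore 0.6.5 and FastQC 0.11.9, with the build GRCh38. The annotation release and the strand setting are not given. Of 269 columns 60 match labelled samples, and 209 were not used.

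Estimated counts were rounded and tested with edgeR 4.0.16 (R 4.3.3; TMM, filterByExpr by group with a minimum count of 10, robust quasi-likelihood fit) on all 60 libraries, 1 column per group, 40 residual degrees of freedom. The common biological coefficient of variation was 7.04%. CPM use TMM-adjusted library sizes, and standard errors (±) of log2 fold changes are the change divided by the square root of F. Names and positions came from a current name table and GENCODE 29, and upstream sequences from RefSeq (GRCh38.p14). Transcript length is that of the longest GENCODE 29 transcript (99.29% of the tested genes). Replicates correlated at 0.989 to 0.993 (log2 CPM), and 0 libraries were identical.

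The text names tested genes of the 29 lists, and the 12 rises and 12 falls of largest size among called genes that have a symbol, no overlap between groups and a mean of 1 or more on the log2 CPM scale. Other genes are said to be chosen after their values were seen. Members and lists were chosen with earlier results of these data known. Alternatives were the size factors of DESeq2, no filter, a replicate block, the transcript length slope as covariate, only the 6 libraries compared, each library left out, and DESeq2 1.42.0. The fit was also run on counts simulated with the same spread for every gene and with no library apart in its length slope. That run therefore does not bear on the part of PT high replicate 2, and no result here rests on it. A member of the gene lists that entered the counts is not reported here by name.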

Additional observations from a re-analysis of the deposited data

How the results depend on the processing

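The count of 240 genes called against vehicle was 1343 without the filter on low counts (780 rises and 563 falls of 36774 genes) and 28 in a fit on the 6 libraries alone (19 and 9), where fewer libraries set the spread. It ranged from 62 to 292 with each library left out in turn. DESeq2 gave 331 (215 and 116), its size factors in edgeR 214 (149 and 65), and the length slope as a covariate 268 (196 and 72). The 94 calls against PT at 20 µg/mL became 729 without the filter, 26 in a fit on those 6 libraries alone, 175 with the length slope, and 54 to 85 with each library left out. The cause of these differences was not tested. Same-numbered libraries did not deviate together (correlations of 0.102, -0.0252 and -0.0731 against vehicle), so replicate numbers were not taken as pairs, and with a replicate block the counts were 225 and 94. Of 92 called genes followed through 12 alternatives, 18 were called in all of them, 44 were lost without PT high replicate 2, 42 and 44 without vehicle replicates 1 and 2, 10 to 21 without any 1 of the other 3 libraries, 72 were lost with only the 6 libraries, and 0 changed sign.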

Other observations

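A few called genes with roles apart from inflammation and sterols are given as values, chosen after those values were seen. RHCG, an ammonia transporter of epithelia, was at 2.95, 3.18 and 2.07 CPM in vehicle and 4.15, 4.85 and 4.34 CPM at 500 µg/mL PT. Its groups did not overlap, and the log2 fold change was 0.68 ± 0.13 (edgeR adjusted p = 0.00273), or 0.62 ± 0.15 without PT high replicate 2 (adjusted p = 0.0375). NPNT, which encodes the matrix protein nephronectin, was at 1.33, 1.8 and 1.7 CPM in vehicle and 1.01, 0.601 and 0.985 CPM at the high dose. Replicate 2 was the lowest high-dose library, and the change of -0.86 ± 0.21 (adjusted p = 0.0274) was not called without it (adjusted p = 0.289). FOXQ1, a forkhead factor, had 0.437, 0.185 and 0.355 CPM at the high dose and 0, 0.157 and 0.103 CPM in vehicle, so that its call (adjusted p = 0.04) rests on few counts. It was lost without any 1 of the 6 libraries other than PT high replicate 2. SEMA3F, whose groups overlapped, was at 5.65, 5.92 and 4.29 CPM in vehicle and 3.5, 4.48 and 3.9 CPM at the high dose (-0.44 ± 0.11, adjusted p = 0.0365). The call was lost without vehicle replicate 1 or 2, without PT high replicate 1 or 3, and in the fit on the 6 libraries alone.

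Among 13 tested genes of iron and siderophore handling 1 rose, LCN2, and 1 fell, SLC39A14, a zinc and iron importer, at -0.20 ± 0.05 (edgeR adjusted p = 0.0488). PT high replicate 2 was its lowest library, with 157 CPM against 184 and 182 CPM in the other replicates, and the gene was not called without it (adjusted p = 0.575).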
